A study of Rattus norvegicus with 15 samples.

Results

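This account covers the transcription factor genes Creb1, Crem, Srf, Mef2a, Mef2c and Mef2d together with Crtc1 and Sik1, which encode a coactivator and a kinase of the CREB pathway, in the rat nucleus accumbens. The genes were chosen by name, as regulators of the CREB, SRF and MEF2 branches of activity-dependent transcription, with earlier results of these data known. The rule uses measured values only to choose among several probe sets of a gene, by highest mean. Of the 8 genes, 7 had a probe set whose only platform symbol was that gene, each with 1 such probe set, and all 7 passed the filter on low values. The whole table paired 14497 genes with probe sets of 1 symbol, of which 11778 were kept for testing. Mef2c had no probe set with it as the only symbol and was not analysed here. Probe sets with several symbols were not used.

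Neuronal activity raises cAMP and calcium, and kinases then phosphorylate CREB, the protein of Creb1, on DNA sites called cAMP response elements (CREs). Dephosphorylated CRTC1 enters the nucleus and coactivates CREB, while SIK1 phosphorylates CRTC proteins and class II histone deacetylases and so holds them in the cytoplasm; Sik1 is itself a known CREB target gene. SRF binds CArG boxes together with ternary complex factors or MRTF proteins, and MEF2 factors bind AT-rich sites and are held back by class II histone deacetylases. All 3 branches control immediate early genes, and CREB and MEF2 in particular have been studied in the nucleus accumbens for their part in responses to cocaine.

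The 15 arrays held 5 groups of 3, all from male Sprague-Dawley rats. In 4 groups the rats had self-administered cocaine at 0.75 mg/kg per infusion for 6 hours a day over 10 days. The 30C rats had 30 days of withdrawal followed by an extinction test of cue-induced cocaine seeking, and the 30W rats had 30 days of withdrawal with no test. The 1C rats had 1 day of withdrawal followed by that test, and the 1W rats had 1 day of withdrawal with no test. The Sal rats self-administered saline under the conditions used for cocaine. For Sal, neither a withdrawal time nor a test is stated in the labels. Nor do they state whether 1 rat or several gave the RNA of an array, so p-values measure only the spread between these arrays.

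Values are RMA log2 expression, on which a difference of 1 is a doubling of signal. Pairs of arrays correlated at 0.993 to 0.997 over all probe sets. All 15 measured markers of medium spiny neurons, the main neurons of the accumbens, lay above the array median on 15 of 15 arrays. Several arrays stood apart in marker scores, the mean deviation of a marker list from its average over the 15 arrays. The cortical projection neuron score, from 15 of 21 listed genes, was 0.96 on 30C replicate 1 and -1.23 on Sal replicate 1, against -0.66 to 0.74 on the other arrays; its marker Slc17a7, a glutamate transporter gene of cortical projection neurons, ranged from 7.16 to 12.16. The medium spiny neuron score was lowest on 30C replicate 1, at -0.45, against -0.24 to 0.27 on the others. The choroid plexus and ependymal score, from 6 of 10 listed genes, was 0.56 on 30C replicate 3, 0.72 on 30W replicate 3 and 0.55 on 1C replicate 1, against -0.31 to 0.02 on the other arrays. In this bulk tissue, fewer cells of a type and less RNA per cell cannot be told apart.

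The DNA before the transcription starts of the 7 genes was searched for the motifs that these factors are known to bind, and 4 windows are shown because they hold motifs of the 3 branches. They come from RefSeq on assembly GRCr8 and run over the 250 bases before a transcript start, 5′ to 3′ on the gene's strand, with the motif named for each in capitals. In Sik1, at chr20:9958647-9958896 on the minus strand, the capitals mark 2 CRE cores, the letters TGACG or their reverse complement CGTCA. In Crem, at chr17:58984547-58984796 on the plus strand, they mark the full palindromic CRE, TGACGTCA, before the second of 3 annotated starts. In Srf, at chr9:21923826-21924075 on the plus strand, they mark 2 CArG boxes, the motif that SRF binds; a CRE core in this window is in lower case. In Mef2a, at chr1:130392163-130392412 on the minus strand, they mark 1 MEF2 site.
Sik1: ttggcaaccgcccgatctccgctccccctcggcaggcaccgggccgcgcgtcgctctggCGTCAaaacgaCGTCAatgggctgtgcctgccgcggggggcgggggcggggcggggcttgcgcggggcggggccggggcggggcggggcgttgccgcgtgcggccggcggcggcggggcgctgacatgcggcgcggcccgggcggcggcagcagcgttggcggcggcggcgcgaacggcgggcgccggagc
Crem: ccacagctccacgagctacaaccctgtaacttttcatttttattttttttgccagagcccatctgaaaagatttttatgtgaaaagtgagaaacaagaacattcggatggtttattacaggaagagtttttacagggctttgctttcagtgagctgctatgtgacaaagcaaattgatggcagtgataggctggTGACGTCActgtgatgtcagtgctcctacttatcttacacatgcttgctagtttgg
Srf: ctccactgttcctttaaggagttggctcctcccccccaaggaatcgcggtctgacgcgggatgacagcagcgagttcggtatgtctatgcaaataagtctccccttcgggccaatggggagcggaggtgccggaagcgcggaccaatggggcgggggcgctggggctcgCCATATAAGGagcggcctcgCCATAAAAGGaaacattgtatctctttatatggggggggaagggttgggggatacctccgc
Mef2a: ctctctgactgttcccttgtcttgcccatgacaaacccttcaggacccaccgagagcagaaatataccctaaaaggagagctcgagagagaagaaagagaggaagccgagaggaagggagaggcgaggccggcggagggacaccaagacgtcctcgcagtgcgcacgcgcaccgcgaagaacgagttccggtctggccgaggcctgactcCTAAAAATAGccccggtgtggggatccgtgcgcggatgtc

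The 7 genes had 10 annotated starts, and both strands of each window were searched. A full CRE was present in 2 of the 10 windows, both of Crem, against 1.59% of 33469 rat promoter windows of the same length. The matches lay 56 to 49 bases before the second start and 35 to 28 bases before the third. A CRE core was present in 6 of the 10 windows, against 18.2% of all windows; each full CRE counts here too, since it holds both letter forms. Besides Crem, the windows of Sik1, Srf and the first start of Creb1 held cores. The 2 cores of Sik1 began 191 and 180 bases before its start. The Srf window held 2 CArG boxes, at 81 to 72 and 61 to 52 bases before the start; 1.5% of all windows held one. A MEF2 site was present in the Mef2a window, at 40 to 31 bases before the start, against 2.96% of all windows. The windows of Crtc1, Mef2d and the second start of Creb1 held none of these letters. A match describes the letters only and was not set against any binding data.

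**Figure D1:**
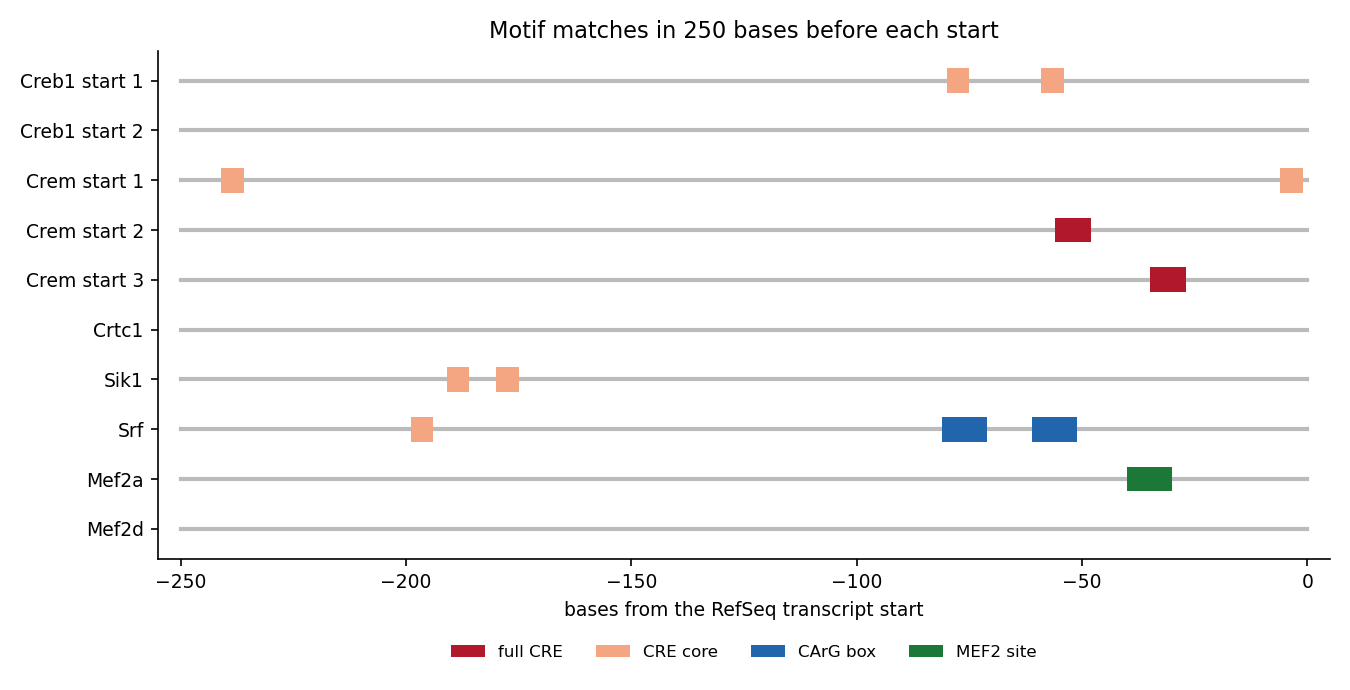
Motif matches before each annotated transcript start of the 7 genes. The x axis gives bases from the start, each grey line is 1 window of 250 bases, and coloured blocks are matches on either strand. Full CREs stand in 2 Crem windows, 2 CArG boxes in the Srf window and 1 MEF2 site in the Mef2a window.

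The first question was how the extinction test at 30 days of withdrawal went with the levels of these genes. Sik1 was 1.36-fold higher in 30C than in 30W, Crem 1.16-fold higher and Srf 1.08-fold higher, and in these 3 genes every 30C array lay above every 30W array. Creb1, Crtc1, Mef2a and Mef2d differed by -0.02 to 0.03 on the log2 scale. None of the 7 genes passed the threshold, a limma p below 0.05 after Benjamini-Hochberg adjustment over 11778 genes. The share of all genes that passed was 0.0% in this comparison, where 463 genes had an unadjusted p below 0.05.

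Across the 7 genes, 6 differences between 30C and 30W were above 0, with a median of 0.03 on the log2 scale, against a median of 0.00 and 52.4% of differences above 0 over all genes. The 3 genes whose groups did not overlap, with 30C higher, compare with 4.51% of all genes. The 2 genes that were higher at an unadjusted p below 0.05, Sik1 and Crem, compare with 2.11%. The same counts at 1 day were 6 of 7 genes higher in 1C than in 1W, 1 of them, Sik1, at an unadjusted p below 0.05, against 1.86% of all genes. None passed the threshold there, nor in any of the other pairwise comparisons, where the share of all genes that passed was 0.0% throughout. The contrast of 30 with 1 day averaged over the test had 1 gene past the threshold, 0.00849% of those tested, and it was none of the 7.

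**Figure D2:**
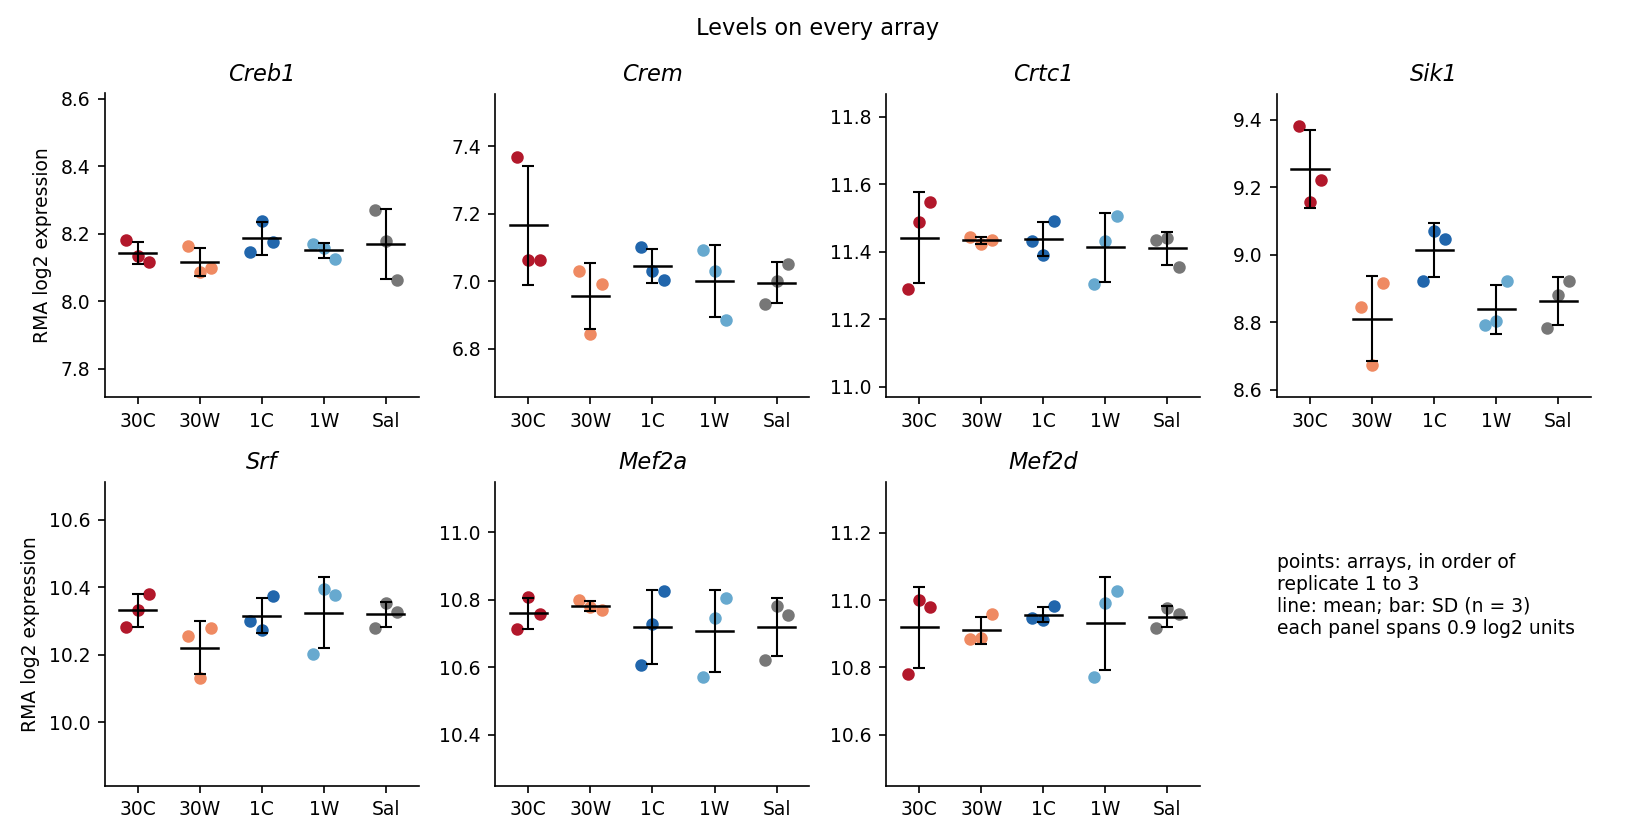
RMA log2 expression of the 7 genes on every array. Points are arrays in order of replicate, lines are means and bars are SD (n = 3); each panel spans the same log2 range around its own centre. Sik1 shows 30C arrays at 9.16 to 9.38, above all arrays of the 4 other groups.

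Creb1 encodes CREB, the CRE-binding activator. Its level was 8.18, 8.13 and 8.11 in 30C, 8.16, 8.09 and 8.10 in 30W, 8.14, 8.24 and 8.17 in 1C, 8.17, 8.16 and 8.12 in 1W, and 8.27, 8.18 and 8.06 in Sal. The Sal arrays alone covered the range of all 15. The difference between 30C and 30W was 0.03 (SE 0.05, 95% confidence interval -0.09 to 0.14), and over all 8 pairwise comparisons the differences lay between -0.05 and 0.04.

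Crem encodes the CREB relative CREM, whose internal promoter gives the short repressor ICER; where the probes lie was not examined here, and the value is not assigned to either form. Its level was 7.37, 7.06 and 7.06 in 30C, against 7.03, 6.84 and 6.99 in 30W. In 1C it was 7.10, 7.03 and 7.00, in 1W 7.09, 7.03 and 6.88, and in Sal 6.93, 7.00 and 7.05. The highest array was 30C replicate 1, the one with the high cortical and low medium spiny neuron scores, and the next was 1C replicate 1. The difference between 30C and 30W was 0.21 (SE 0.08, interval 0.03 to 0.39), with an unadjusted p of 0.0242 and an adjusted limma p of 0.999. Without 30C replicate 1 the difference was 0.11, and with the medium spiny neuron score in the model it was 0.17.

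Crem was also higher in 30C than in Sal, by 0.17 (SE 0.08, interval -0.01 to 0.35, adjusted limma p 0.993), and by 0.07 without 30C replicate 1. Every 30C array lay above every Sal array by a narrow margin, with the lowest 30C array at 7.063 and the highest Sal array at 7.052. Crem and Sik1, 2 of the 7 genes, did not overlap between these groups, against 4.3% of all genes with 30C higher. Averaged over both withdrawal times, the tested rats were higher by 0.13 (SE 0.06, interval 0.00 to 0.25) than the untested rats, with an adjusted limma p of 0.999; the value was 0.08 without 30C replicate 1. Crem and Sik1 were the 2 genes higher at an unadjusted p below 0.05 in that averaged contrast, against 2.5% of all genes.

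Crtc1 encodes the neuronal CREB coactivator CRTC1. Its level was 11.29, 11.49 and 11.55 in 30C, 11.44, 11.42 and 11.43 in 30W, 11.43, 11.39 and 11.49 in 1C, 11.30, 11.43 and 11.51 in 1W, and 11.44, 11.44 and 11.35 in Sal. The lowest and the highest of the 15 arrays were both 30C arrays, so the spread lay within groups. The difference between 30C and 30W was 0.01 (SE 0.07, interval -0.14 to 0.15), and the 8 pairwise differences ran from 0.00 to 0.03.

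Sik1 encodes salt-inducible kinase 1, the kinase that keeps CRTC proteins and class II histone deacetylases out of the nucleus. Its level was 9.38, 9.16 and 9.22 in 30C, against 8.84, 8.67 and 8.92 in 30W. In 1C it was 8.92, 9.07 and 9.05, against 8.79, 8.80 and 8.92 in 1W, and in Sal it was 8.78, 8.88 and 8.92. The 30C arrays lay above all 12 others, and the means of 30W, 1W and Sal were within 0.05 of each other. The order of means was 30W, 1W, Sal, 1C and 30C from low to high; the neighbours 30W, 1W and Sal overlapped, while all 1C arrays lay above all Sal arrays by a narrow margin and all 30C arrays above all 1C arrays.

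Between 30C and 30W, Sik1 differed by 0.44 (SE 0.08, interval 0.28 to 0.60). Its unadjusted limma p was 4.61e-05, the second smallest of 11778 genes, and its adjusted limma p was 0.271. The value ranged from 0.37 to 0.49 over the alternative settings, with adjusted p from 0.0637 to 0.998. With the cortical score in the model the difference was 0.44, with the medium spiny neuron score it was 0.44, and without 30C replicate 1 it was 0.38. Without 30C replicate 3 it was 0.46 and without 30W replicate 3 it was 0.49. The adjusted limma p without 30C replicate 1 was 0.872. The part of tissue makeup in this difference was not tested.

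At 1 day Sik1 differed by 0.17 between 1C and 1W (SE 0.08, interval 0.01 to 0.34), with an adjusted limma p of 1.0 and overlapping arrays. The test of whether the 30-day difference was larger than the 1-day difference gave 0.27 (SE 0.11, interval 0.04 to 0.50), with an unadjusted limma p of 0.0247 and an adjusted p of 0.999. Sik1 was the 1 member of 7 at an unadjusted p below 0.05 and above 0 in that test, against 1.6% of all genes, and none of 11778 genes passed its threshold, while 357 had an unadjusted p below 0.05. Averaged over both withdrawal times, tested rats were higher by 0.31 (SE 0.05, interval 0.19 to 0.42; adjusted limma p 0.245).

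After the test, Sik1 was 0.24 higher at 30 days than at 1 day (30C against 1C; SE 0.08, interval 0.08 to 0.40; adjusted limma p 0.752). It was the 1 member with no overlap there, against 3.82% of all genes with 30C higher, and the 1 member higher at an unadjusted p below 0.05, against 2.41%. Without the test, 30W differed from 1W by -0.03 (SE 0.08, interval -0.19 to 0.13). The difference between these withdrawal effects is the test of 0.27 given above.

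Against saline, Sik1 was 0.39 higher in 30C (SE 0.08, interval 0.23 to 0.55; adjusted limma p 0.218) and 0.15 higher in 1C (SE 0.08, interval -0.01 to 0.31; adjusted limma p 1.0). In 30C against Sal it was the 1 member higher at an unadjusted p below 0.05, against 2.94% of all genes. In 1C against Sal it was the 1 member whose arrays did not overlap, against 3.97% of all genes. In 30W and 1W it differed from Sal by -0.05 and -0.02. The comparisons with Sal share the 3 Sal arrays. In the F test over the 5 groups Sik1 was the 1 member at an unadjusted p below 0.05, against 6.96% of all genes, and its adjusted limma p was 0.304.

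**Figure D3:**
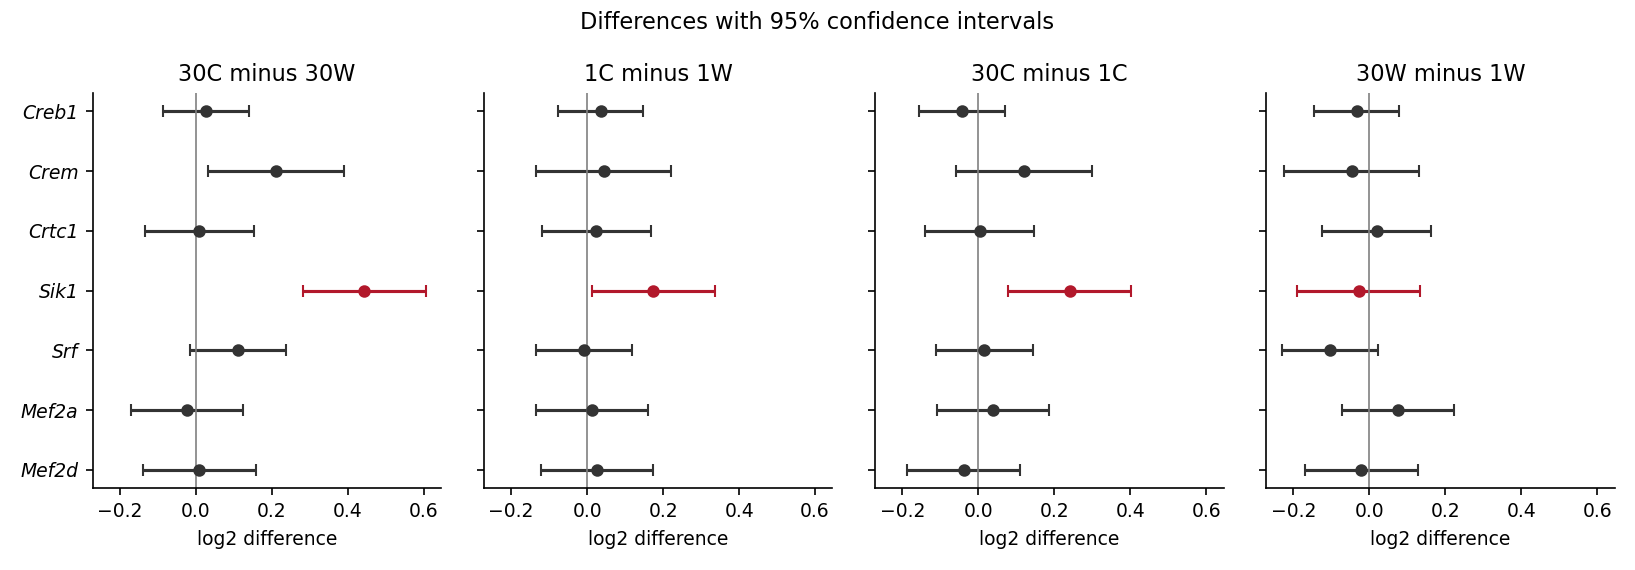
Log2 differences of the 7 genes in 4 comparisons, each named first group minus second group. Points are limma estimates and bars are 95% confidence intervals. Sik1, in red, stands at 0.44 in 30C minus 30W and 0.17 in 1C minus 1W; Creb1, Crtc1, Mef2a and Mef2d lie near 0 in both.

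Oligodendrocyte markers moved opposite to Sik1. Their score, from 13 of 14 listed genes, was -0.07, -0.05 and -0.14 in 30C, -0.04, 0.01 and -0.02 in 30W, -0.06, -0.07 and -0.07 in 1C, 0.22, 0.20 and -0.02 in 1W, and 0.14, -0.01 and -0.03 in Sal. The 30C arrays lay below the 30W arrays and the 1C arrays below the 1W arrays, with no overlap in either pair. Over the 15 arrays the correlation of this score with Sik1 was r = -0.64 and rho = -0.88 (r = -0.67 without the 2 arrays farthest from the median score). With group means removed it was -0.51. The astrocyte score correlated with Sik1 at r = -0.18, and at -0.57 with group means removed. The part of either score in the Sik1 difference was not tested.

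Srf encodes serum response factor. Its level was 10.28, 10.33 and 10.38 in 30C, against 10.25, 10.13 and 10.28 in 30W, with the lowest 30C array barely above the highest 30W array. In 1C it was 10.30, 10.27 and 10.37, in 1W 10.20, 10.39 and 10.38, and in Sal 10.28, 10.35 and 10.33. The 30C mean lay within the range of the 1C, 1W and Sal arrays, and 30W was the low group. Between 30C and 30W the difference was 0.11 (SE 0.06, interval -0.02 to 0.24), with an adjusted limma p of 0.999, and it was 0.06 without 30W replicate 2. Its values in 30W against 1W and 30W against Sal were -0.10 each.

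Mef2a and Mef2d encode MEF2 factors. Mef2a stood at 10.71, 10.81 and 10.76 in 30C, 10.80, 10.78 and 10.77 in 30W, 10.61, 10.73 and 10.83 in 1C, 10.57, 10.75 and 10.80 in 1W, and 10.62, 10.78 and 10.75 in Sal. Its difference between 30C and 30W was -0.02 (SE 0.07, interval -0.17 to 0.12). All arrays of both 30-day groups lay within the range of the 1C arrays. Mef2d stood at 10.78, 11.00 and 10.98 in 30C, 10.89, 10.89 and 10.96 in 30W, 10.95, 10.94 and 10.98 in 1C, 10.77, 10.99 and 11.03 in 1W, and 10.92, 10.98 and 10.96 in Sal. Its difference between 30C and 30W was 0.01 (SE 0.07, interval -0.14 to 0.16), and its 2 lowest arrays were replicate 1 of 30C and of 1W.

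Over the 8 pairwise comparisons of Creb1, Crtc1, Srf, Mef2a and Mef2d, 40 values in all, the log2 differences lay between -0.10 and 0.11. Their 95% confidence intervals reached from -0.23 to 0.24, and the smallest unadjusted limma p was 0.083. With 3 arrays a group, larger differences lie outside these intervals and smaller ones do not, so equal levels are not shown.

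Several of the genes varied together from array to array. Over the 15 arrays Crtc1 correlated with Mef2d at r = 0.79 and Srf with Mef2d at r = 0.70, and Crem with Sik1 at r = 0.72. Crem and Crtc1 ran in opposite directions, at r = -0.54. Creb1 did not go with Crtc1, Srf, Mef2a or Mef2d, at r = -0.13, 0.00, -0.38 and -0.22. The arrays of each correlation share RNA and normalization. With group means removed these values were 0.85 for Crtc1 with Mef2d, 0.79 for Srf with Mef2d, 0.46 for Crem with Sik1 and -0.80 for Crem with Crtc1.

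Crtc1 and Mef2d followed the medium spiny neuron score. For Crtc1 the correlation with the score was r = 0.91 and rho = 0.87 over 15 arrays, 0.83 without the 2 arrays farthest from the median, and 0.98 with group means removed. For Mef2d it was r = 0.85 and rho = 0.84, 0.62 without those 2 arrays, and 0.90 with group means removed. For Crem it was r = -0.70 and rho = -0.33, -0.18 without those 2 arrays, and -0.79 with group means removed and all arrays kept; over the 15 arrays it rested on those 2. For Sik1 it was r = -0.22 and rho = 0.24, and for Creb1 r = -0.10 and rho = -0.14. Srf and Mef2a also rose with this score, less closely. For Srf it was r = 0.49 and rho = 0.75, and 0.71 with group means removed. For Mef2a it was r = 0.51 and rho = 0.66, and 0.61 with group means removed. Mef2a ran against the astrocyte score, from 9 of 10 listed genes, at r = -0.71 and rho = -0.54. In neither the medium spiny neuron score nor the levels of Crtc1 and Mef2d did any group stand clear of the others. The part of tissue makeup in the array-to-array spread was not tested.

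**Figure D4:**
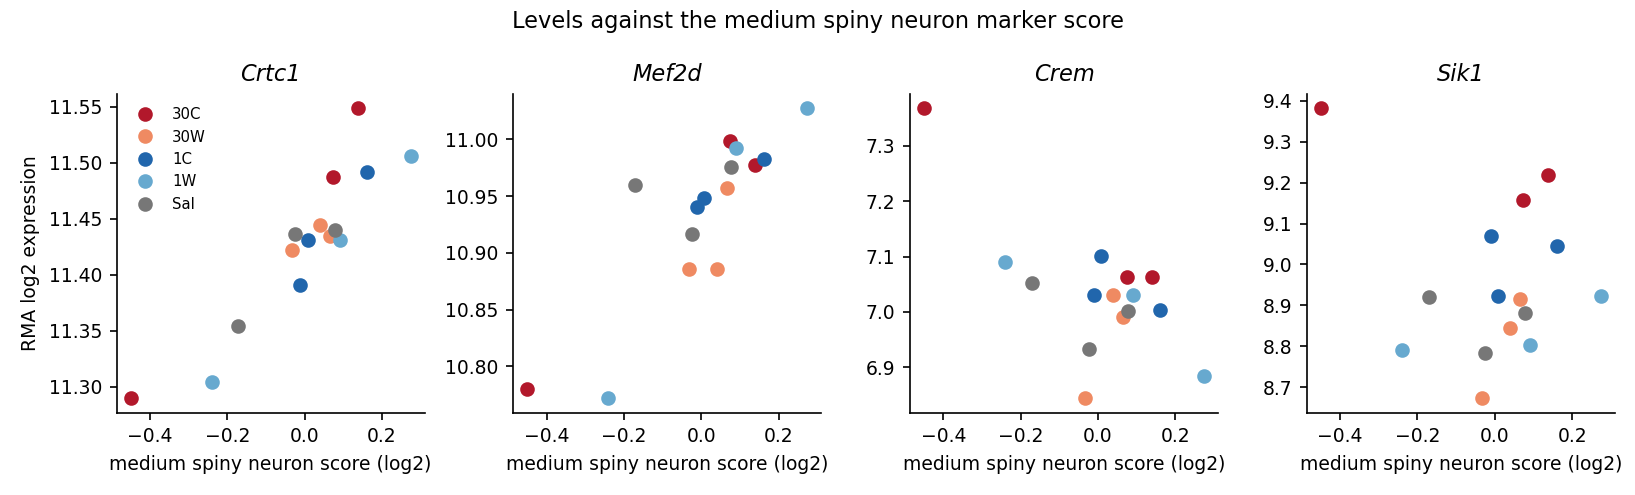
RMA log2 expression of Crtc1, Mef2d, Crem and Sik1 against the medium spiny neuron score, the mean log2 deviation of 15 marker genes. Each point is 1 of 15 arrays, coloured by group. Crtc1 and Mef2d climb with the score (r = 0.91 and 0.85), the highest Crem point is 30C replicate 1 at a score of -0.45, and the 3 Sik1 points of 30C are the highest at any score.

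Other regulators of the 3 branches, listed from general knowledge of the pathways, had medians close to 0, with single genes between -0.16 and 0.18. The 23 further CREB regulators included adenylyl cyclases, protein kinase A subunits, phosphodiesterases, CaM kinases, CREB-related factors, coactivators and Sik2. Of these 23, 0 passed the limma threshold in either direction between 30C and 30W. Among them 13 were above 0 and 10 below, none at an unadjusted p below 0.05, and their median was 0.02 against 0.00 over all genes. The smallest unadjusted p values belonged to Camkk2 (-0.10, SE 0.06), a kinase that activates CaM kinases, to Sik2 (0.10, SE 0.06), a relative of Sik1, and to Camkk1 (-0.10, SE 0.06). Of 7 further SRF regulators 0 passed, with 4 above 0 and 3 below and a median of 0.02. They were led by Elk3 (-0.13, SE 0.06) and Elk4 (0.05, SE 0.05), ternary complex factors, and the actin-severing cofilin gene Cfl1 (-0.04, SE 0.06).

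Of 15 further MEF2 regulators 0 passed the limma threshold between 30C and 30W, with 4 above 0 and 11 below and a median of -0.01. Hdac4, a class II histone deacetylase that represses MEF2, was the 1 of 15 higher at an unadjusted p below 0.05, against 2.11% of all genes. Its level was 8.46, 8.32 and 8.27 in 30C, against 8.14, 8.15 and 8.23 in 30W. The highest was 30C replicate 1, the array with the high cortical and low medium spiny neuron scores. These groups did not overlap, as in 4.51% of all genes with 30C higher. The difference was 0.18 (SE 0.06, adjusted limma p 0.999). Ppp3ca and Ppp3r1, catalytic and regulatory subunits of calcineurin, differed by -0.11 (SE 0.08) and -0.06 (SE 0.05). In the test of the 30-day against the 1-day difference, the leading values were -0.13 for Camkk2, 0.11 for Sik2 and 0.11 for Crtc2, 0.08 for Elk4, 0.16 for Fhl2 and -0.04 for Cfl1, and -0.24 for Mef2b, 0.13 for Hdac4 and -0.16 for Ppp3ca, none at an unadjusted p below 0.05.

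Listed target genes of the branches leaned upward with the test and, with smaller medians, between 30W and 1W, although 0 passed the limma threshold. The lists were chosen with earlier results of these data known, so the lean is a description and not independent support. Between 30C and 30W, 14 of 19 CREB targets were above 0, 6 at an unadjusted p below 0.05, with a median of 0.09. Of 20 SRF targets 14 were above 0, 7 at an unadjusted p below 0.05, with a median of 0.12, and of 12 MEF2 targets 10 were above 0, 3 at an unadjusted p below 0.05, with a median of 0.18. Over all genes the median was 0.00, 52.4% were above 0 and 2.11% were higher at an unadjusted p below 0.05. The lists overlap: Bdnf, Nr4a1 and Ppargc1a stand in the CREB and MEF2 lists, Fos in the CREB and SRF lists, and Arc in the MEF2 and SRF lists. Pdyn, Penk and Tac1 of the CREB targets are also medium spiny neuron markers, as are Adcy5, Pde10a and Ppp1r1b of the CREB regulators. Between 30C and 30W these shared markers differed by -0.13 to -0.03. Between 1C and 1W the medians were 0.08 for CREB targets, 0.05 for SRF targets and 0.10 for MEF2 targets, against 0.00 over all genes, with 2, 3 and 0 targets higher at an unadjusted p below 0.05, against 1.86% of all genes. Without the test, between 30W and 1W, the medians were 0.04, 0.05 and 0.08, against -0.02 over all genes. There 14, 12 and 7 targets were above 0, against 39.7% of all genes. Of these, 1, 2 and 0 had an unadjusted limma p below 0.05, against 493 of 11778 genes. Averaged over the test, 30 against 1 day had 6, 8 and 4 targets higher at that p, against 653 of 11778 genes. Tested against untested rats averaged over withdrawal gave those counts too, against 2.5% of all genes.

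Nfil3, a CREB-induced transcriptional repressor, led the CREB targets. Its level was 8.14, 7.87 and 7.87 in 30C, against 7.39, 7.43 and 7.41 in 30W, a difference of 0.55 (SE 0.08, adjusted limma p 0.0761). In 1C and 1W it differed by 0.10 (SE 0.08), and the test of the change in difference gave 0.45 (SE 0.11, unadjusted limma p 0.00119, adjusted p 0.999). The nuclear receptor gene Nr4a3 differed by 1.01 (SE 0.23) and the clock gene Per1 by 0.32 (SE 0.08) between 30C and 30W. In the 2 genes the difference between 1C and 1W was 0.54 and 0.12.

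Among SRF targets, the AP-1 gene Fosl2 differed by 0.58 (SE 0.11) between 30C and 30W, and the zinc finger genes Egr4 and Egr2 by 0.55 (SE 0.11) and 0.83 (SE 0.18). Egr2 stood at 8.35, 8.11 and 8.01 in 30C, against 7.54, 7.02 and 7.43 in 30W. Between 1C and 1W these genes differed by 0.26, 0.13 and 0.43. The test of the change in difference gave 0.31 (SE 0.16) for Fosl2 and 0.42 (SE 0.16) for Egr4. It gave 0.23 (SE 0.10) for Ier2, another immediate early gene, which lay below the array medians, at 6.37, 6.09 and 6.13 in 30C. Among MEF2 targets, Klf2 differed by 0.27 (SE 0.06), the nuclear receptor gene Nr4a1 by 1.00 (SE 0.24) and the synaptic gene Arc by 0.60 (SE 0.26) between 30C and 30W. For these targets the test of the change in difference gave 0.22 (SE 0.09) for Klf2, 0.63 (SE 0.34) for Nr4a1 and 0.11 (SE 0.09) for Ppargc1a. Among CREB targets it gave 0.20 (SE 0.11) for Per1. Every target named for that test had an adjusted limma p of 0.999 in it. The adjusted limma p of the 9 named targets ran from 0.0761 to 0.999 between 30C and 30W.

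**Figure D5:**
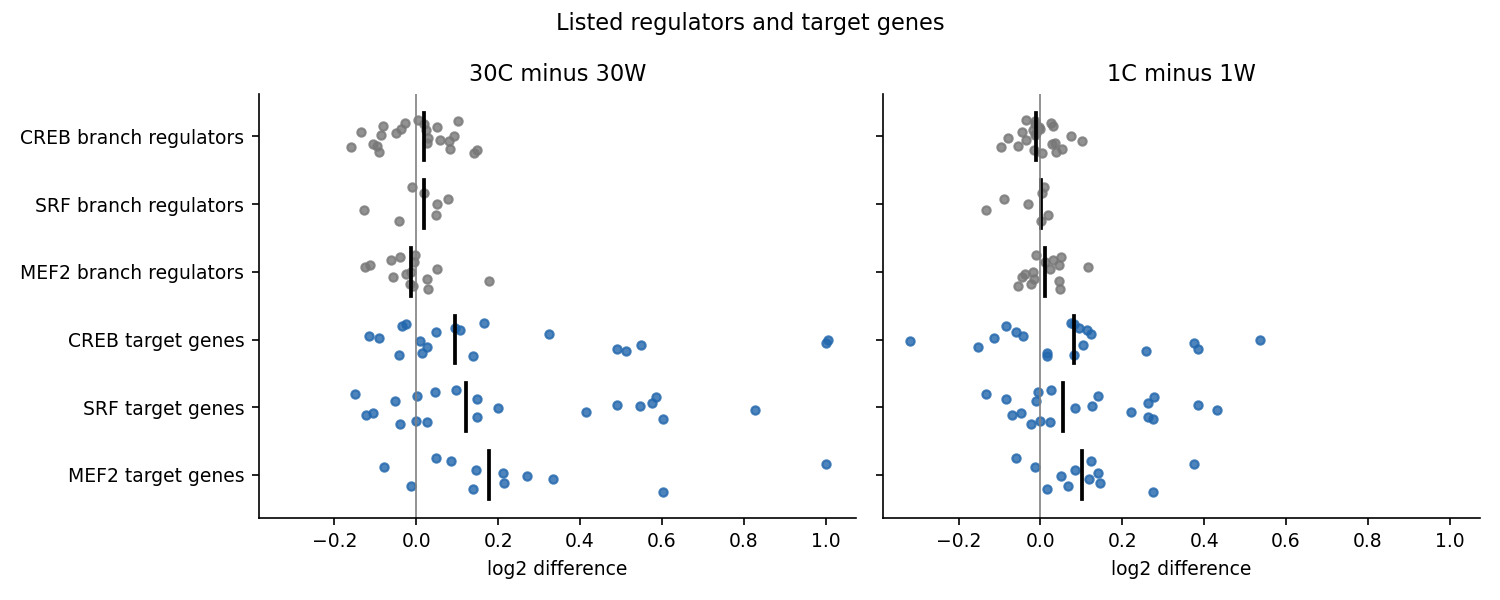
Log2 differences of listed regulators (grey) and target genes (blue) of the CREB, SRF and MEF2 branches, in 30C minus 30W and in 1C minus 1W. Each point is 1 gene and black lines are list medians. The lists were chosen with earlier results of these data known. In 30C minus 30W the regulator medians stand between -0.01 and 0.02, while target medians stand at 0.09, 0.12 and 0.18.

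Among the 7 genes, Sik1 had the highest correlation with each of the 3 target lists. Over the 15 arrays its correlation with the mean deviation of the SRF targets was r = 0.89 and rho = 0.82, 0.83 without the 2 farthest arrays and 0.80 with group means removed. With the CREB targets it was r = 0.77 and rho = 0.70, and with the MEF2 targets r = 0.84 and rho = 0.76. The target genes share their arrays with Sik1, and Sik1 is in none of the lists. The array with the highest score of all 3 target lists was 30C replicate 1 (0.27, 0.26 and 0.36 for CREB, SRF and MEF2 targets), which also had the highest cortical score, and the lowest was Sal replicate 1 (-0.28, -0.18 and -0.23), which had the lowest cortical score. The part of tissue makeup in the target lists was not tested. Creb1, the activator itself, correlated with these 3 lists at r = -0.18, -0.15 and -0.15, and Srf with the SRF targets at r = 0.35.

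By the highest Pearson r over the 15 arrays among all genes tested, the genes most like Sik1 were Cited2 (0.91), Egr2 (0.91) and Junb (0.88). Those most like Crem were Plk3 (0.94), Nap1l3 (0.87) and Mlx (0.86), and those most like Creb1 were Pycr3 (0.87), Creg1 (0.81) and Abhd14a (0.80). Crtc1 was most like Sh3rf2 (0.95), Trerf1 (0.95) and Pogz (0.93), and Mef2d was most like Rem2 (0.94), Kcng3 (0.93) and Dlg4 (0.92). Srf was most like Ubald1 (0.91), Cfap20 (0.90) and Nox1 (0.89), and Mef2a was most like Rgs7bp (0.87), Cabp5 (0.87) and Scn3b (0.87).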

How the data were processed

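Total RNA of the nucleus accumbens was measured on 15 Affymetrix rat arrays. The deposited log2 expression values had been made by the authors with RMA, per the submitters' processing notes; software, version and filters: not given in the sources used here. RMA corrects background, quantile-normalizes arrays and compresses small differences. The labels' protocol names a 3' labelling kit, although the probe set identifiers look like a whole-transcript design; this was not settled, so which part of a transcript a value measures is not known here. Of 28826 probe sets, 15209 had 1 symbol in the platform annotation, 306 had several and 13311 were unnamed here; 15178 were matched to RefSeq. Each gene was represented by its probe set of highest mean (494 genes had several), and genes were tested where 3 or more arrays had them above that array's 30th percentile.

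Groups came from sample titles. One limma model (lmFit and eBayes, limma 3.58.1, R 4.3.3) was fitted over 15 arrays with group as its only term, with 10 residual and 3.44 prior degrees of freedom. Benjamini-Hochberg adjustment ran over 11778 genes at a threshold of 0.05, and intervals are 95%. Tested on simulated data (30C minus 30W) with 200 of 11778 genes changed, the model recovered 86.1% of those changed by 0.5 log2 units and 97.9% of those changed by 1. It also called 11.2 unchanged genes on average. The simulation drew each gene independently, while genes of these arrays vary together, so these shares do not measure the power of the real comparison. The number of arrays limits the precision. No scan date or other batch was given in the labels.

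The 7 genes and all lists were chosen with earlier results of these data known. Named genes are the members, the 3 genes most alike to each by Pearson r, and from each pathway list the genes past the threshold or, failing 3, those with the smallest unadjusted p. Alternatives changed the filter, the probe set rule, the normalization, the variance model, array weights, the arrays in the fit, covariates, the threshold and the replicates. Same-numbered arrays of different groups had deviations correlating at -0.63 to 0.51 (median -0.01 over 30 pairs), so numbers were not taken to pair arrays. Promoter windows came from RefSeq (GRCr8); their strand was checked by the position of TATA boxes, 190 of 16624 minus-strand windows at 40 to 21 bases before the start against 84 in a stretch farther upstream.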

Additional observations from a re-analysis of the deposited data

How the results depend on the processing

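The Sik1 differences between 30C and 30W, 1C and 1W, 30C and 1C, 30C and Sal, 1C and Sal, in the averaged test contrast and in the interaction kept their direction under all 25 alternatives each, and none passed the threshold. Under the replicate block, Sik1 differed by 0.44 between 30C and 30W (adjusted limma p 0.434), and the block moved no count of genes past the threshold; same-numbered arrays shared only a number. Directions near 0 reversed: Crtc1 in 30C minus 30W ran from -0.0452 to 0.0844 when 1 array was left out, Mef2d from -0.0308 to 0.0785 and Mef2a from -0.0466 to 1.02e-05, and Mef2a was 0.00408 with the medium spiny neuron score as a covariate, a setting chosen after seeing the data. Counts of genes past the threshold, 0 unless stated, moved as follows; the causes were not tested. In 30C minus 30W the count was 1 with array weights, with the cortical covariate and at an adjusted p below 0.10, and 0 to 1 leaving out 1 array (1 without Sal replicate 3 or 1C replicate 2). It was 0 to 1 in 1C minus 1W and in 1C minus Sal leaving out 1 array (1 without 30C replicate 3). In 30W minus 1W it was 3 with array weights and 0 to 1 leaving out 1 array (1 without 30W replicate 1). In 30C minus 1C it was 2 with array weights, 1 with the cortical covariate and 0 to 2 leaving out 1 array (2 without 1C replicate 2 or 30C replicate 3). For the averaged test contrast it was 2 with the cortical covariate. For the averaged withdrawal contrast, 1 in the fit reported, it was 2 with median centring, 4 with further quantile normalization, 6 with array weights, 0 with the medium spiny neuron covariate, 0 with only the arrays compared, 5 at an adjusted p below 0.10 and 0 to 3 leaving out 1 array (3 without 30C replicate 1, 2 without 30W replicate 1 or 1C replicate 2, and 0 without Sal replicate 2, 1W replicate 1 or 2, 30W replicate 2 or 3, 1C replicate 1 or 3, or 30C replicate 2 or 3). For the F test it was 1 with the cortical covariate and 0 to 2 leaving out 1 array (2 without 1C replicate 2, 1 without 30W replicate 1); it was not run on only the arrays compared, which are all 15. Scaling alternatives moved the median of all genes by at most 0.0407 on the log2 scale.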
